A study of Mus musculus with 40 samples.

Results

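Skeletal muscle genes were read in RNA prepared from mouse bone: 43 genes of the contractile filaments, their linkers, calcium handling and energy supply in muscle fibres were named, and the probe rows whose symbol was one of them were taken from the deposited intensity table, with the brightest detected probe standing for a gene. Of the 43, 39 had a probe under their own symbol and 3 more under an older one (Ppp1r27 as Dysfip1, Mybpc1 as 8030451F13Rik and Xirp1 as Cmya1), which makes 42 of the 17914 genes on the array with 54 probes. Cacna1s, the voltage sensor of the muscle calcium release unit, had no probe row, so its level was not analysed here. The rule goes by gene symbol, and measured intensity chose the probe. The 43 genes were named with earlier results of these arrays known, so counts of them below are no independent test.

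The arrays were 40, on 5 BeadChips (glass slides with 8 arrays each), in 8 groups of 5. All mice were 15-week-old C57BL/6 females that had been ovariectomized, and 1 week later they received E2 (17β-estradiol, 115 µg/kg under the skin) or the olive oil vehicle, 18 h before RNA was taken. Their genotype was either a deletion of AF-1, an activation function of the estrogen receptor ERα, written AF-1-deleted here, or wild type. The bone was either the vertebral bodies L5 and L6, which the labels call trabecular, or flushed long-bone shafts, which they call cortical. The groups are therefore, in each bone, AF-1-deleted with E2, AF-1-deleted with vehicle, wild type with E2 and wild type with vehicle. A replicate number stands for 1 BeadChip that carried 1 array of every group. Whether a mouse gave both bones, and whether replicates were separate animals, is not in the labels, so every spread here is one between samples and may be partly technical. No Cre driver or cell type is named for the deletion, and how much muscle was left on a bone before RNA was taken is not in them.

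Skeletal muscle fibres contract when calcium released from the sarcoplasmic reticulum binds troponin on the thin filament, which lets myosin heads pull on actin. Fast and slow fibres use different genes for the same parts: slow fibres express Myh7, Myl2, Myl3 and Tnnc1, which the heart uses too, while fast fibres express Myh1, Myh2, Myh4, Mylpf and Tnnt3. Muscle inserts on bone through tendon, so bone dissected from a limb or the spine can carry some fibres with it. In RNA from a whole tissue, fewer cells of a type and less RNA per cell cannot be told apart, and this holds for every result below.

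Bone genes were present as the labels imply: of 11 measured osteoblast and osteocyte markers, 9 had a detection p-value under 0.01, called detected here, on every array of both bones. Detected probes numbered 8052 to 11203 on trabecular arrays, with the lowest 4 counts, up to 9218, all on BeadChip 1, and 9880 to 11691 on cortical arrays. Levels are log2 intensities after background correction and quantile normalization, so a difference of 1 is a 2-fold difference in intensity, and levels of different genes cannot be compared on this platform. Of the 42 muscle genes, 26 were detected on all 40 arrays and 36 on all 20 cortical arrays. Detected on 0 trabecular arrays were Myh7, Tnni1, Casq1, Casq2 and Sln, which were detected on 8, 14, 14, 12 and 19 cortical arrays in that order.

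The mean level over the 42 genes was read on each array first. With E2 in AF-1-deleted mice it was 9.30, 9.38, 9.72, 9.10 and 9.57 on the trabecular arrays of BeadChips 1 to 5, against 8.33, 9.23, 9.10, 9.39 and 8.86 with vehicle. Wild-type trabecular arrays had 9.89, 9.81, 8.54, 9.01 and 9.11 with E2 and 8.81, 8.73, 8.92, 8.14 and 9.04 with vehicle. These 20 values ran from 8.14 to 9.89, and the groups overlapped, except AF-1-deleted with E2, from 9.10 up, and wild type with vehicle, up to 9.04. In cortical bone the AF-1-deleted mice had 12.78, 11.61, 11.44, 11.24 and 12.46 with E2 and 10.97, 11.99, 11.83, 12.16 and 12.05 with vehicle. Wild-type cortical arrays had 12.49, 12.21, 11.96, 10.00 and 10.26 with E2, against 10.90, 10.77, 10.96, 12.45 and 12.29 with vehicle. Cortical values ran from 10.00 to 12.78, so the lowest cortical array, of wild type with E2, lay 0.11 above the highest trabecular array, also of wild type with E2.

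**Figure D1:**
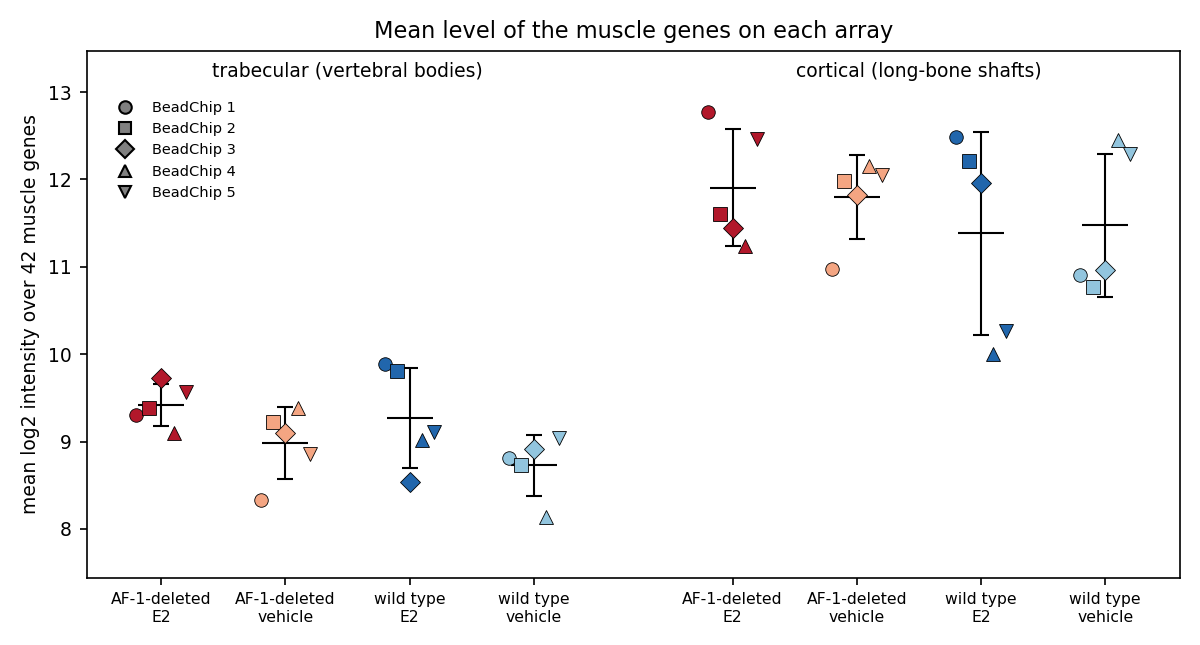
Mean log2 intensity over 42 muscle genes on each of 40 arrays, by group; marker shapes give the BeadChip, the horizontal line is the group mean and the bar its SD (n = 5). The 20 trabecular arrays lie between 8.14 and 9.89 and the 20 cortical arrays between 10.00 and 12.78, and 2 cortical arrays of wild type with E2 lie apart from the other 3 at 10.00 and 10.26.

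The comparison of trabecular with cortical bone asks how much muscle transcript each dissection held. All 42 genes had a fitted difference below 0, lower in trabecular bone, averaged over the 4 combinations of genotype and treatment. Each passed the test (limma over all genes, Benjamini-Hochberg adjusted p under 0.05), where 24.7% of all 9451 genes tested passed in that direction. Myh7, Tnni1, Casq1, Casq2 and Sln, detected on 0 trabecular arrays, and Trim63, detected on 1, entered through cortical bone alone. Their differences are not measured in full, and for Myh7 none is given below. The mean difference of the 42 genes was −2.54 ± 0.13 (SD over 5 BeadChips), a 5.82-fold lower intensity, and their median was −2.53 against 0.07 over all genes. That SD understates the spread within single combinations, which was 0.21 to 1.03. In wild type, BeadChips 4 and 5 had −0.98 and −1.15 with E2 but −4.31 and −3.25 with vehicle, and these offset each other in the mean. A gene dim in trabecular bone can pass the detection filter through cortical bone alone, so the 26 genes detected on every array were also read apart: 26 of 26 passed, with a median of −2.53 and a range from −4.21 to −1.04, where 20.2% of the 5598 genes so detected passed as lower. Groups of 20 did not overlap at all for 8 of the 42 genes, against 1.43% of all genes. Among the 50 genes with the lowest differences 17 were muscle genes, among the lowest 100 there were 23 and among the lowest 200 there were 32. The muscle genes were chosen with results of these arrays known, so these counts are no independent test.

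Each combination of genotype and treatment gave the same direction. The counts and means again include the genes that entered through cortical bone alone. With the deletion and E2, 41 of 42 genes passed as lower (12.0% of all genes did) with a mean of −2.49 ± 0.69 (SD over 5 BeadChips), and with the deletion and vehicle 42 of 42 passed (12.7%) with −2.82 ± 0.21. In wild type with E2, 39 of 42 passed (11.4%) with −2.11 ± 1.03, and with vehicle 42 of 42 (11.6%) with −2.75 ± 1.02. The count in wild type with E2 was 17 when BeadChip 3 was left out. Arrays of the bones did not overlap for 41 and 40 genes in AF-1-deleted mice with E2 and vehicle (8.66% and 10.3% of all genes), and for 12 and 37 genes in wild type with E2 and vehicle (6.74% and 8.39%).

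**Figure D2:**
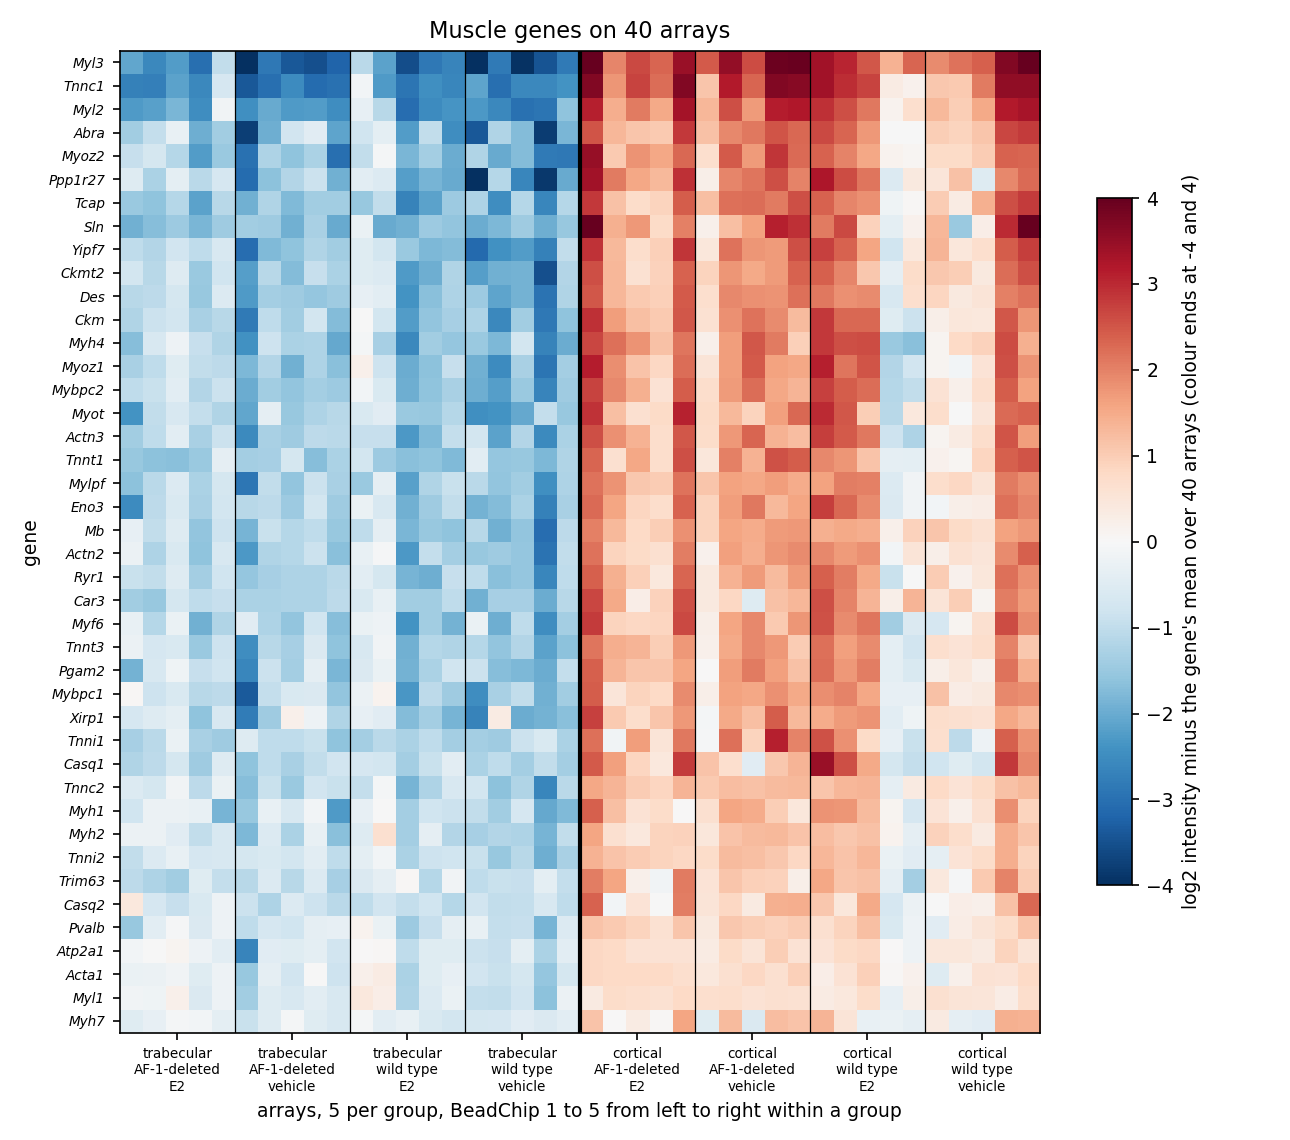
Log2 intensity of each of 42 muscle genes minus its own mean over 40 arrays (colour), with genes in rows and arrays in columns; a thick line parts trabecular arrays, left, from cortical arrays, right. Rows run from Myl3 (−5.77) at the top to the genes with the smallest fitted differences, and the columns of BeadChips 4 and 5 in cortical wild type with E2 are paler than the other 3 of that group.

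The largest differences were in 3 slow-fibre genes. Myl3, the essential light chain of slow and ventricular myosin, was lowest of all 9451 genes relative to cortical bone, at −5.77 ± 0.23 (SE; adjusted p = 1.01e-20), a 54.4-fold difference in intensity, with 6.04 to 9.43 (median 7.57) on trabecular arrays (17 of 20 detected) and 11.79 to 14.46 (median 13.05) on cortical arrays. Tnnc1, the calcium-binding troponin subunit of slow and cardiac muscle, stood at rank 2 at −4.89 ± 0.30 (adjusted p = 1.42e-15), with 6.47 to 9.76 (median 7.27) against 10.03 to 13.58 (median 12.56). Myl2, the matching regulatory light chain, stood at rank 3 with −4.21 ± 0.27 (adjusted p = 6.46e-15). For Myl3 and Tnnc1 the 20 trabecular arrays all lay below the 20 cortical arrays. Next among the 42 genes were Abra, an actin-binding protein of striated muscle, at −3.39 ± 0.29 (adjusted p = 7.17e-12), Myoz2, a calcineurin-binding Z-disc protein of slow fibres and heart, at −3.35 ± 0.25 (adjusted p = 2.79e-13), and Ppp1r27, a regulatory subunit of protein phosphatase 1, at −3.32 ± 0.31 (adjusted p = 2.94e-11). Myoz2 was detected on 10 of 20 trabecular arrays, Abra, Ppp1r27 and Myl3 on 17 each and Tnnc1 on 18, so background can limit these sizes and ranks. Under other processing the differences were as small as −4.78 for Myl3, −3.90 for Tnnc1 and −3.74 for Myl2. They were as small as −2.14 for Myoz2, −2.46 for Abra and −2.45 for Ppp1r27. The smallest differences among the genes detected on every array were those of 3 very bright probes, Myl1 at −1.04 ± 0.12, Acta1 at −1.10 ± 0.13 and Atp2a1 at −1.11 ± 0.14, for which the top of the intensity scale is considered below.

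Myl2 shows what this looks like array by array. Its trabecular levels on BeadChips 1 to 5 were 8.65, 8.74, 9.10, 8.44 and 10.79 with the deletion and E2, 8.47, 8.90, 8.67, 8.70 and 8.45 with the deletion and vehicle, 10.58, 9.80, 7.88, 8.39 and 8.57 with E2 in wild type, and 8.64, 8.33, 7.95, 7.99 and 9.31 with vehicle in wild type. In cortical bone they were 14.04, 12.37, 13.01, 12.44 and 14.25 with the deletion and E2, 12.26, 13.50, 12.62, 14.05 and 14.13 with the deletion and vehicle, 13.83, 13.49, 13.02, 11.08 and 11.60 with E2 in wild type, and 12.21, 11.89, 12.45, 14.08 and 14.21 with vehicle in wild type. Every cortical array, down to the 11.08 of wild type with E2 on BeadChip 4, lay above every trabecular array, the highest of which was 10.79 in AF-1-deleted with E2 on BeadChip 5.

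**Figure D3:**
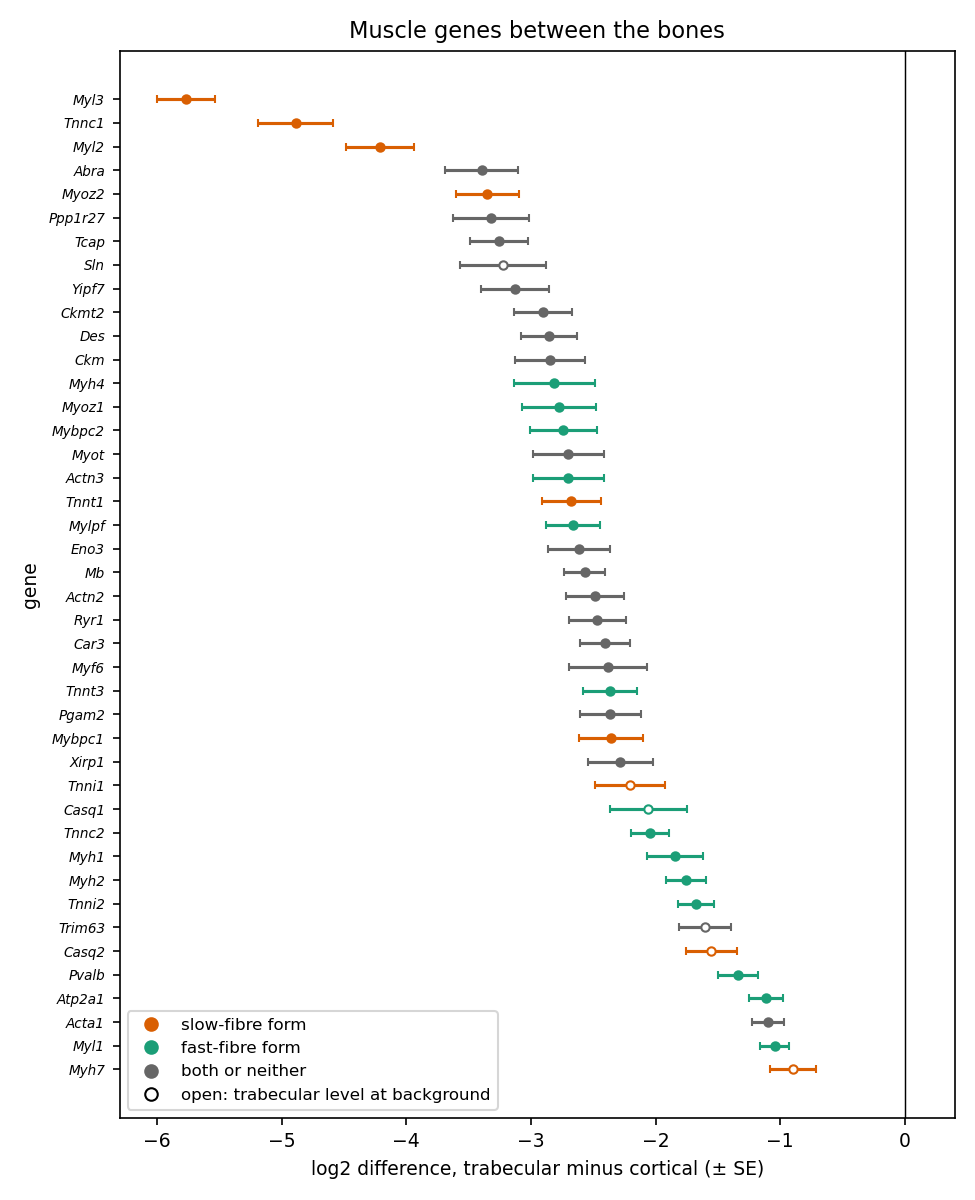
Difference in log2 intensity, trabecular minus cortical, of each of 42 muscle genes averaged over the 4 combinations of genotype and treatment, with its SE from limma; colours mark slow-fibre forms, fast-fibre forms and genes of both or neither, and open points the 6 genes detected on 0 or 1 trabecular arrays, whose differences are not measured in full. All 42 points lie left of 0, and Myl3, Tnnc1 and Myl2, all slow-fibre forms, lie farthest left.

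By role, the 4 myosin light chains had a median difference of −3.44 and the 4 heavy chains −1.80. Troponin subunits (6 genes) had −2.28, actin with the Z-disc and filament linkers (12 genes) −2.72, and genes of energy and oxygen supply (6 genes) −2.59 with the narrowest range, from −2.90 for the mitochondrial creatine kinase Ckmt2 to −2.36 for the glycolytic enzyme Pgam2. Calcium handling genes had −1.80 over 6 genes. These medians include 6 genes that were detected on 0 or 1 trabecular arrays and entered the fit through cortical bone alone (Myh7, Tnni1, Casq1, Casq2, Sln and Trim63). Over the genes detected on all 40 arrays the medians were −2.66 for 3 light chains, −1.85 for 3 heavy chains, −2.21 for 4 troponin subunits, −2.74 for 7 actin, Z-disc and linker genes, −2.59 for the same 6 energy genes and −1.34 for 3 calcium handling genes.

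By fibre type, the 9 slow-fibre genes had a median of −2.68, the 14 fast-fibre genes −2.05 and the 19 others −2.61. Over the genes detected on all 40 arrays this was −3.44 for 2 slow-fibre genes (Myl2 and Tnnt1), −2.05 for 13 fast-fibre genes and −2.57 for 11 others. The mean level of the 14 and 9 genes on the 20 arrays of a bone overlapped between the bones for the fast genes (9.79 to 11.61 in trabecular, 11.35 to 13.84 in cortical bone) and not for the slow genes (6.40 to 7.96 in trabecular, 8.63 to 11.37 in cortical bone). The mean slow minus the mean fast level, which moves only if they change unequally and in which 3 of the 9 slow genes (Myh7, Tnni1 and Casq2) were at background in trabecular bone, averaged −3.84 ± 0.38 in trabecular AF-1-deleted E2 samples, −3.88 ± 0.28 with the deletion and vehicle, −3.84 ± 0.28 in wild type with E2 and −3.68 ± 0.36 with its vehicle (SD over 5 arrays). The cortical means were higher, at −2.88 ± 0.63 with the deletion and E2, −2.59 ± 0.68 with the deletion and vehicle, −2.93 ± 0.32 in wild type with E2 and −2.71 ± 0.45 with vehicle. Several fast genes were close to the top of the intensity scale: the highest deposited intensity was 41465 for Myl1, 41068 for Pvalb, 40076 for Mylpf, 38405 for Tnnc2 and 38319 for Atp2a1, where the highest of the whole table was 49061. Acta1, used by both fibre types, reached 42597. A dimmer second probe of Myl1 (highest intensity 8491) had a difference of −3.42, against −1.04 for the probe used. The dimmer probe was detected on 33 of 40 arrays, with a trabecular mean of 6.90, so background can limit the −3.42. How far the scale's upper end sets the fast-fibre values was not tested.

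Other genes with more than 1 probe kept their direction with every probe, though some of these probes were at background in trabecular bone. Actn3, the Z-disc actinin of fast fibres, had −2.70 and −2.86 with probes detected on all 40 arrays and −3.60 with 1 detected on 21. Mb, myoglobin, had −2.57 and −3.33, Ckmt2 −2.90 with both, and Mybpc1 −2.36 and −2.51. Ryr1, the calcium release channel, had −2.47, −2.48 and −2.56 with 3 probes and −0.96 with 1 more, detected on 10 arrays. Myh1 had −1.85 with its main probe and −0.72 with one detected on 13 arrays. These dim probes of Actn3, Ryr1 and Myh1 had trabecular means of 5.97, 5.57 and 5.88. Probes were detected in trabecular bone from about 6.76, so such a probe can be kept through cortical bone alone. Its direction is then no separate support, and its difference is not measured in full. Myh1, Myh2 and Myh4 are near-identical neighbouring genes, and whether a probe of one binds transcripts of another was not tested.

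The 4 panel genes of this group stand for the thin filament, the energy supply and the fast myosin and troponin: Acta1, skeletal alpha-actin, Ckm, muscle creatine kinase, Mylpf, the fast regulatory light chain, and Tnnt3, fast troponin T. The promoters of 3 of them are shown as background, and whether they bear on the levels measured here was not tested. The RefSeq sequences (GRCm38.p6) are the 250 bases before the transcript start, 5′ to 3′, with capitals for CAGCTG, a core bound by myogenic basic helix-loop-helix factors, and for TATAAA, searched on both strands.
Acta1, chr8:123894776-123895025, reverse strand: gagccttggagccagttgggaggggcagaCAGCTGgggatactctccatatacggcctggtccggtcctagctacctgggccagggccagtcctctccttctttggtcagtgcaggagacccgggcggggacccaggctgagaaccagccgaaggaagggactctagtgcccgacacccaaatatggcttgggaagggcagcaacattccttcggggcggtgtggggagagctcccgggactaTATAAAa
Ckm, chr7:19410844-19411093, forward strand: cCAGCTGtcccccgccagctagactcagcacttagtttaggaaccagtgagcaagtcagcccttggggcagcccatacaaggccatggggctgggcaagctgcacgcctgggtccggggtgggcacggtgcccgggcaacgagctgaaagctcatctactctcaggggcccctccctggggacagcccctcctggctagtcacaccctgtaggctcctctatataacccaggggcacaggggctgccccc
Mylpf, chr7:127211358-127211607, forward strand: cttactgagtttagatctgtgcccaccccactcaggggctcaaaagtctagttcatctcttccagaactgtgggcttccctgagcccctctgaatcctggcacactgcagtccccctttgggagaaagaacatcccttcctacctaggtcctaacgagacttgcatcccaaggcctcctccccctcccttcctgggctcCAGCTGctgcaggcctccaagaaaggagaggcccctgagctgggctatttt
Each holds 1 CAGCTG, and the Acta1 stretch also TATAAA. Of 31 named muscle genes with an entry, 16 (51.6%) held CAGCTG in these 250 bases, against 12.8% of all 27025 entries of that length. Cacna1s, which had no probe, is counted among both. TATAAA was in 7 of 31 (22.6%), against 13% of all, and the core of MEF2 sites (CTA, 4 bases of any kind, TAG) in 1 of 31 (3.23%), against 3.23%. In the stretches shown no match overlaps another. A match here is a match of letters only, not a site shown to be bound.

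Acta1 on trabecular BeadChips 1 to 5 was at 13.82, 13.86, 13.95, 13.61 and 13.89 with the deletion and E2, 12.57, 13.71, 13.31, 14.05 and 13.26 with the deletion and vehicle, 14.30, 14.42, 12.81, 13.60 and 13.74 with E2 in wild type, and 13.32, 13.18, 13.38, 12.52 and 13.37 with vehicle in wild type. In cortical bone Acta1 was at 14.91, 14.87, 14.89, 14.87 and 14.76 with the deletion and E2, 14.51, 14.72, 14.91, 14.74 and 15.03 with the deletion and vehicle, 14.34, 14.67, 15.03, 14.13 and 14.25 with E2 in wild type, and 13.56, 14.29, 14.68, 14.65 and 14.88 with vehicle in wild type. The bones overlapped on single arrays, and the difference of −1.10 ± 0.13 passed (adjusted p = 3.72e-09). The 5 cortical AF-1-deleted arrays with E2 all lay between 14.76 and 14.91. This probe was close to the top of the intensity scale, and what that does to its spread was not tested.

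Ckm levels in trabecular bone were 10.80, 11.12, 11.26, 10.70 and 10.88 with the deletion and E2, 9.16, 10.97, 10.59, 11.27 and 10.25 with the deletion and vehicle, 11.99, 11.26, 9.75, 10.41 and 10.66 with E2 in wild type, and 10.76, 9.42, 10.59, 9.12 and 10.40 with vehicle in wild type. In cortical bone Ckm was at 14.90, 13.68, 13.19, 13.02 and 14.49 with the deletion and E2, 12.60, 13.80, 14.18, 13.88 and 13.25 with the deletion and vehicle, 14.81, 14.29, 14.28, 11.49 and 11.14 with E2 in wild type, and 12.22, 12.45, 12.40, 14.46 and 13.77 with vehicle in wild type. The difference between the bones was −2.85 ± 0.28 (adjusted p = 1.36e-10). The wild-type cortical arrays with E2 lay apart, 3 from 14.28 to 14.81 and 2 at 11.49 and 11.14.

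Mylpf was at 11.29, 11.84, 12.37, 11.67 and 12.21 with the deletion and E2, 10.04, 11.94, 11.36, 12.06 and 11.63 with the deletion and vehicle, 11.44, 12.55, 10.74, 11.72 and 12.03 with E2 in wild type, and 11.85, 11.35, 11.54, 10.46 and 11.69 with vehicle in wild type. Its cortical levels were 15.11, 14.73, 14.01, 13.93 and 15.11 with the deletion and E2, 14.02, 14.53, 14.47, 14.58 and 14.40 with the deletion and vehicle, 14.53, 14.96, 14.93, 12.37 and 12.79 with E2 in wild type, and 13.61, 13.74, 13.43, 14.99 and 14.78 with vehicle in wild type. Mylpf differed by −2.66 ± 0.21 between the bones (adjusted p = 1.16e-12), with 1 trabecular array, of wild type with E2 on BeadChip 2, above the lowest cortical array, of wild type with E2 on BeadChip 4.

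Tnnt3 in trabecular bone was at 11.90, 11.47, 11.52, 10.64 and 11.31 with the deletion and E2, 9.64, 11.00, 10.80, 11.55 and 10.50 with the deletion and vehicle, 11.49, 11.98, 10.21, 10.98 and 10.93 with E2 in wild type, and 10.97, 10.54, 10.96, 9.97 and 10.48 with vehicle in wild type. Cortical Tnnt3 levels were 14.25, 13.56, 13.49, 13.11 and 13.86 with the deletion and E2, 12.34, 13.65, 14.06, 13.85 and 13.15 with the deletion and vehicle, 14.32, 13.75, 14.02, 11.74 and 11.36 with E2 in wild type, and 12.79, 12.68, 12.84, 14.10 and 13.19 with vehicle in wild type. Its difference was −2.36 ± 0.22 (adjusted p = 3.14e-11), and the 2 lowest cortical arrays were again BeadChips 4 and 5 of wild type with E2.

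Among the heavy chains, Myh4 encodes the fastest form (IIb), Myh2 the IIa form and Myh7 the slow form. Myh4 in trabecular bone was at 9.15, 10.22, 10.67, 9.94 and 9.65 with the deletion and E2, 8.45, 10.04, 9.59, 9.64 and 8.83 with the deletion and vehicle, 10.78, 9.54, 8.30, 9.47 and 9.31 with E2 in wild type, and 9.39, 9.08, 10.13, 8.18 and 8.88 with vehicle in wild type. In cortical bone it was at 13.54, 13.08, 12.66, 12.03 and 13.02 with the deletion and E2, 11.06, 12.54, 13.35, 12.95 and 11.81 with the deletion and vehicle, 13.69, 13.45, 13.46, 9.37 and 9.19 with E2 in wild type, and 10.98, 11.66, 11.80, 13.49 and 12.30 with vehicle in wild type. Cortical wild-type arrays with E2 on BeadChips 4 and 5 were within the trabecular range, and the difference of −2.81 ± 0.32 passed (adjusted p = 4.7e-09). Myh2 levels in trabecular bone were 12.03, 12.04, 11.81, 11.29 and 11.63 with the deletion and E2, 10.47, 11.72, 11.01, 11.99 and 10.60 with the deletion and vehicle, 11.77, 12.91, 10.93, 11.91 and 11.10 with E2 in wild type, and 10.94, 11.12, 11.04, 10.41 and 11.28 with vehicle in wild type. Cortical Myh2 levels were 13.85, 12.93, 12.71, 13.16 and 13.19 with the deletion and E2, 12.74, 13.42, 13.53, 13.58 and 13.42 with the deletion and vehicle, 13.52, 13.36, 13.44, 12.43 and 11.92 with E2 in wild type, and 13.20, 12.98, 12.63, 13.72 and 13.39 with vehicle in wild type. Myh2 differed by −1.76 ± 0.16 (adjusted p = 2.96e-11). Myh7 was detected on 2 cortical arrays with the deletion and E2, 3 with the deletion and vehicle, 1 in wild type with E2 and 2 with vehicle, with cortical levels of 5.11 to 7.25 and trabecular levels of 4.78 to 5.60, none well above background. For Myh7 no difference is given, since its mean cortical level lay under the level at which a probe was detected in trabecular bone.

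Tnnt1 is slow troponin T and Atp2a1 the fast calcium pump SERCA1. Tnnt1 in trabecular bone was at 9.01, 8.86, 8.85, 9.03 and 10.15 with the deletion and E2, 9.14, 9.18, 9.79, 8.81 and 9.23 with the deletion and vehicle, 9.77, 9.07, 8.82, 8.89 and 8.75 with E2 in wild type, and 10.08, 8.96, 8.98, 8.70 and 9.31 with vehicle in wild type. Cortical Tnnt1 was at 12.85, 11.16, 12.07, 11.22 and 13.09 with the deletion and E2, 10.97, 12.53, 11.90, 13.07 and 12.92 with the deletion and vehicle, 12.42, 12.27, 11.65, 10.16 and 10.11 with E2 in wild type, and 10.68, 10.57, 11.35, 12.89 and 13.03 with vehicle in wild type. The difference was −2.68 ± 0.24 (adjusted p = 1.41e-11), and the 1 overlap was between the trabecular array of AF-1-deleted with E2 on BeadChip 5 (10.15) and the cortical array of wild type with E2 on BeadChip 5 (10.11). Atp2a1 was at 13.89, 14.00, 14.11, 13.80 and 13.57 with the deletion and E2, 11.35, 13.56, 13.53, 13.61 and 13.25 with the deletion and vehicle, 14.03, 14.06, 12.99, 13.52 and 13.51 with E2 in wild type, and 13.13, 13.08, 13.63, 12.72 and 13.57 with vehicle in wild type. In cortical bone it was at 14.82, 14.81, 14.57, 14.59 and 14.59 with the deletion and E2, 14.32, 14.77, 14.53, 14.97 and 14.59 with the deletion and vehicle, 14.54, 14.78, 14.82, 14.02 and 13.80 with E2 in wild type, and 14.45, 14.45, 14.36, 14.89 and 14.52 with vehicle in wild type. Atp2a1 differed by −1.11 ± 0.14 (adjusted p = 2.43e-08).

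Trim63, the ubiquitin ligase MuRF1 of muscle protein breakdown, was detected on 1 trabecular and 17 cortical arrays, at 5.19 to 6.65 (median 5.66) and 5.25 to 8.67 (median 7.58). Myf6, the muscle-specific transcription factor MRF4, was detected on 10 trabecular and 20 cortical arrays, at 5.44 to 7.73 (median 6.70) and 6.55 to 10.73 (median 9.24). Myf6 differed by −2.38 ± 0.31 (adjusted p = 7.24e-08). Of the genes detected on 0 trabecular arrays, Sln, the small inhibitor of the calcium pump, was at least 3.63-fold lower in trabecular bone, Tnni1, slow troponin I, at least 1.71-fold, Casq1, the fast calsequestrin, at least 1.54-fold and Casq2, the cardiac and slow calsequestrin, at least 1.15-fold. Trim63 was at least 1.55-fold lower (adjusted p = 5.55e-08 with limma). These bounds set the mean cortical level against the lowest signal at which probes were detected on the trabecular arrays (adjusted p = 1.03e-09 for Sln, 3.97e-08 for Tnni1, 8.73e-07 for Casq1 and 7.75e-08 for Casq2 with limma). The p-values belong to the fitted differences, with trabecular levels at background, and not to the bounds.

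A second list of 53 muscle genes, none of them among the 43, was read beside them, with 36 measured between the bones. Of these 34 passed as lower in trabecular bone and 1 as higher (24.7% and 31.0% of all genes did), with a median of −2.27. The lowest were Hspb7, a small heat shock protein of muscle, at −3.18 ± 0.25, Art1, an ADP-ribosyltransferase, at −3.16 ± 0.24, Ampd1, muscle AMP deaminase, at −3.01 ± 0.29, and Pygm, muscle glycogen phosphorylase, at −3.00 ± 0.33 (SE; limma adjusted p from 5.6e-13 to 1.79e-09). Tpm3, a tropomyosin with forms in other cells too, was the 1 gene higher, at 0.54 ± 0.14 (adjusted p = 0.00195). Of the 36 genes, 17 were detected on every trabecular array, and 28 on enough of them to be tested within trabecular bone. Genes outside these 28 could be kept through cortical bone alone. Their direction is then no separate support, and their differences are not measured in full. Both lists were chosen with results of these arrays known, so the second is no independent check of the first.

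Markers of other cell types differed between the bones as well. Of 11 osteoblast and osteocyte genes 9 passed as lower in trabecular bone (median −1.04), of 4 tendon genes 4 (median −1.11), of 4 adipocyte genes 4 (median −0.97), of 4 endothelial genes 4 (median −0.60) and of 4 smooth muscle genes 3 (median −0.50), where 24.7% of all genes passed as lower. On 5 or more trabecular arrays, 9 of the 11 osteoblast and osteocyte genes, 1 of the 4 tendon and 2 of the 4 adipocyte genes were detected. The others of these lists were kept through cortical bone, and their differences are not measured in full. Of 10 marrow genes 0 were lower and 4 higher (median 0.23), where 31.0% of all genes passed as higher. Of 4 nerve genes 2 were lower and 2 higher (median 0.04). Of 4 genes of muscle stem cells, regenerating muscle and the nerve-muscle junction 2 were lower and 1 higher (median −0.51). Of 3 cartilage genes 1 was higher (median 0.30), the proteoglycan gene Acan, detected on 18 trabecular and 1 cortical arrays. The heart list had 2 of 7 genes measured, Actc1, cardiac actin, detected on 4 trabecular and 19 cortical arrays, and Myh6, a cardiac myosin heavy chain, detected on 0 and 14. They were at least 7.54-fold and 1.41-fold lower in trabecular bone, and 4 more heart genes on the array were detected too rarely. Both entered the fit through cortical bone. Their limma adjusted p of 1.52e-07 and 3.67e-07 belong to the fitted differences and not to these bounds. The mean level of marrow markers was 13.69 to 14.02 on trabecular and 13.18 to 13.86 on cortical arrays, and that of tendon markers 5.74 to 6.51 and 6.37 to 8.43. Their part in the muscle genes' difference was not tested.

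Within groups, the muscle genes spread far more between arrays than most genes. Their residual SD had a median of 0.611 in trabecular bone, against 0.338 over all 8693 genes, and 0.928 in cortical bone, against 0.351 over all 9096 genes. In trabecular bone 36 of 36 lay above the median of all genes and 12 above its 95th percentile of 0.691. In cortical bone 39 of 42 lay above the median and 34 above the 95th percentile of 0.731. The 3 below were Myl1 (0.225), Atp2a1 (0.287) and Acta1 (0.334), all among the brightest probes named above, and the highest was Sln (1.59).

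**Figure D4:**
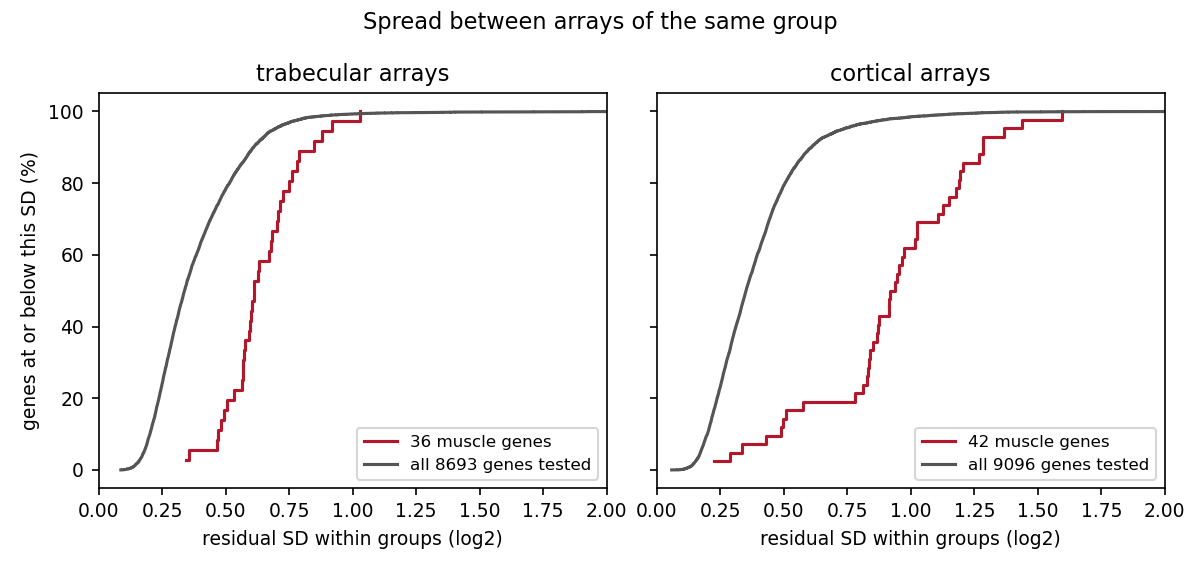
Share of genes (%) whose residual SD within groups, on the log2 scale, is at or below the value on the horizontal axis, for the muscle genes and for all genes tested, in trabecular arrays (left) and cortical arrays (right). The muscle curve lies to the right of the curve of all genes, with medians of 0.611 against 0.338 in trabecular and 0.928 against 0.351 in cortical bone.

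The genes varied together from array to array. The first principal component of their within-group deviations held 81.9% of the variance in cortical and 55.9% in trabecular bone, and the second 7.04% and 12.9%. In cortical wild type with E2, 42 of 42 genes were below their group mean on BeadChips 4 and 5, and 41, 42 and 35 were above it on BeadChips 1, 2 and 3. Cortical wild type with vehicle showed the opposite split, with 41 genes above the mean on BeadChips 4 and 5 each, and 39, 41 and 38 below it on BeadChips 1, 2 and 3. With the deletion and E2 in cortical bone, 41 and 37 genes were above the mean on BeadChips 1 and 5, and 27, 39 and 41 below it on BeadChips 2, 3 and 4. With the deletion and vehicle, 40 were below it on BeadChip 1.

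The second muscle list ran the same way on those arrays. Its mean level in cortical wild type with E2 was 11.45, 11.07, 10.92, 8.92 and 9.43 on BeadChips 1 to 5, against 9.88, 9.66, 9.79, 11.34 and 11.06 with vehicle. The osteoblast and osteocyte list was at 12.00, 12.06, 12.38, 12.21 and 12.50 with E2 and at 11.67, 11.88, 11.91, 12.12 and 12.25 with vehicle. The marrow list was at 13.62, 13.50, 13.72, 13.86 and 13.40 with E2 and at 13.33, 13.74, 13.78, 13.49 and 13.37 with vehicle. Ranges within these groups were 0.50 with E2 and 0.58 with vehicle for the bone list and 0.47 and 0.44 for the marrow list, against 2.49 and 1.68 for the 42 muscle genes. Other lists differed between these arrays too. The 4 tendon genes were at 7.86, 6.98, 8.43, 6.37 and 6.73 with E2 and at 7.36, 7.73, 6.88, 8.24 and 7.86 with vehicle, and the 4 adipocyte genes at 10.31, 10.25, 9.38, 8.94 and 9.75 with E2 and at 9.10, 8.96, 9.65, 10.01 and 10.23 with vehicle. On BeadChips 4 and 5 the tendon list had its 2 lowest values with E2 and its 2 highest with vehicle, and the adipocyte list had its 2 highest with vehicle there and its lowest with E2 on BeadChip 4. The 2 heart genes had a mean of 10.46, 9.86, 9.16, 6.26 and 5.47 with E2 and 6.47, 7.23, 6.93, 10.62 and 9.83 with vehicle, the same split as the muscle genes. What these lists have to do with the spread of the muscle genes was not tested.

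The treatment comparisons ask whether E2 changed muscle transcripts in either bone. In wild-type trabecular bone 0 of 36 genes tested passed (0.207% of all genes did), while 34 of 36 were higher with E2, where 48.7% of all genes were. Their mean difference was 0.61 ± 0.76 (SD over 5 BeadChips), with 1.17, 1.23, −0.45, 1.04 and 0.04 on BeadChips 1 to 5, so BeadChip 3 ran the other way. By limma 13 of the 36 had an unadjusted p under 0.05 (6.78% of all genes did). Tnni2, fast troponin I, had the lowest adjusted p of 0.467 at 0.68 ± 0.21, and Ppp1r27 the largest difference, 1.31 ± 0.50 (adjusted p = 0.681); both were picked out after their values were seen. Among panel genes, Acta1 had 0.62 ± 0.28 (adjusted p = 0.719), Ckm 0.76 ± 0.41 (0.774), Myh2 0.76 ± 0.33 (0.706), Myl2 0.60 ± 0.45 (0.823) and Atp2a1 0.40 ± 0.33 (0.845).

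In AF-1-deleted trabecular bone 0 of 36 passed (0.0115% of all genes did), 34 of 36 were higher with E2 (49% of all genes were) and the mean difference was 0.49 ± 0.56, with 1.11, 0.19, 0.70, −0.32 and 0.76 on BeadChips 1 to 5. By limma 4 genes had an unadjusted p under 0.05 (4.16% of all genes did), and for 2 genes the 5 E2 arrays lay above the 5 vehicle arrays (0.403% of all genes). The E2 effect with the deletion minus that in wild type was −0.12 ± 1.08, with 0 of 36 genes passing (0.0115% of all genes did) and 0 at an unadjusted p under 0.05 by limma (3.7% of all genes). These 2 E2 effects rest on separate samples, and their difference was smaller than its spread over BeadChips.

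In cortical bone the muscle genes gave no E2 difference larger than their spread. With the deletion the mean difference was 0.11 ± 1.06, with 1.81, −0.37, −0.40, −0.90 and 0.41 on BeadChips 1 to 5. In wild type it was −0.09 ± 1.99, with 1.62, 1.43 and 0.99 on BeadChips 1 to 3 and −2.46 and −2.03 on BeadChips 4 and 5. Of 42 genes 0 passed in either (0% and 0.143% of all genes), and 0 had an unadjusted p under 0.05 by limma (3.5% and 3.13% of all genes did). Between genotypes the E2 effect differed by 0.20 ± 1.83, again with 0 of 42 passing (0% of all genes) and 0 at an unadjusted p under 0.05 (2.33% of all genes).

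**Figure D5:**
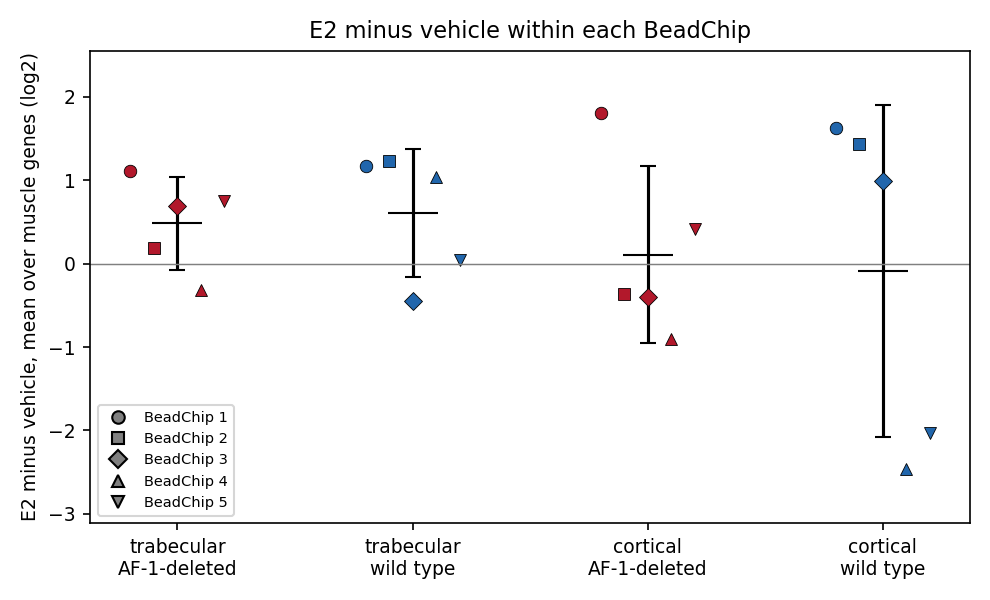
Difference in mean log2 intensity of the muscle genes, E2 minus vehicle, within each of 5 BeadChips, by bone and genotype (36 genes in trabecular and 42 in cortical bone); the line is the mean and the bar the SD over BeadChips. In cortical wild type 3 BeadChips lie between 0.99 and 1.62 and the other 2 at −2.46 and −2.03.

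Genotype was compared at each treatment. In E2-treated cortical bone 42 of 42 genes were higher with the deletion than in wild type (48.8% of all genes were), by 0.52 ± 1.19 on average, and 0 passed (0.0220% of all genes did). Of the 42, 1 had an unadjusted p under 0.05 by limma, where 2.07% of all genes did. In vehicle-treated cortical bone 40 of 42 were higher (52.5% of all genes were), by 0.33 ± 0.68, with 0 passing (0% of all genes) and 0 at an unadjusted p under 0.05 (2.81% of all genes). In trabecular bone the deletion minus wild type was 0.17 ± 0.81 with E2 and 0.29 ± 0.78 with vehicle, with 30 and 34 of 36 genes higher (50.3% and 50.4% of all genes were). There 0 passed in either (0.0345% and 0% of all genes), and 0 and 1 had an unadjusted p under 0.05 (3.91% and 4.27% of all genes). The genes varied together from array to array, so a count of genes with one sign is not a count of separate readings. Between the bones, trabecular minus cortical, the E2 effect differed by 0.33 ± 0.70 with the deletion and 0.64 ± 1.99 in wild type, with 0 of 42 genes passing in either (0% and 0.0106% of all genes) and 1 and 3 at an unadjusted p under 0.05 (2.14% and 2.71% of all genes).

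Myl10, a myosin regulatory light chain gene outside the 43, had another pattern over treatments and bones. It was at 7.84 ± 0.26 with E2 and 5.69 ± 0.14 with vehicle in AF-1-deleted trabecular bone, and at 8.97 ± 0.41 with E2 and 6.54 ± 0.52 with vehicle in wild type (SD, 5 arrays each). In cortical bone it was at 8.34 ± 0.24 with E2 and 6.17 ± 0.73 with vehicle with the deletion, and at 9.17 ± 0.87 and 6.61 ± 0.47 with E2 and vehicle in wild type. Myl10 was detected on every E2 array, and with vehicle on 0 trabecular and 1 cortical array with the deletion and on 1 trabecular and 3 cortical arrays in wild type. Between the bones it differed by −0.31 ± 0.16 (limma adjusted p = 0.0886), where each of the 26 muscle genes detected on all 40 arrays passed. With vehicle Myl10 was undetected on most arrays of both bones, so its difference between the bones is not measured in full. In cortical wild type with E2 Myl10 also spread widely, from 7.99 to 10.27, where the muscle genes' mean level spanned 2.49. Whether Myl10 varied with them from array to array was not tested.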

How the data were processed

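Bone RNA was read on 40 one-colour Illumina arrays, grouped by the labels alone. Per the file headers and labels, the deposited table holds each probe's mean bead intensity from GenomeStudio (version not given in the sources used here) with a detection p-value, as the authors deposited them; the values show no background subtraction or normalization between arrays. A second table the authors deposited holds linear intensity that, judged from its values, was quantile-normalized over the 40 arrays.

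Background correction from the detection p-values, an offset of 16, quantile normalization and log2 were done here with neqc of limma 3.58.1 (statmod 1.5.0, R 4.3.3). Symbols were brought up to date with RefSeq's gene table (GRCm38.p6). Probes detected (p under 0.01) on 5 or more arrays entering a fit were kept, and the brightest of them stood for a gene. Group means were fitted with lmFit and eBayes over all genes (20 arrays within a bone, 40 between bones), with Benjamini-Hochberg adjustment over all genes and calls at an adjusted p under 0.05. The fits were tested on simulated data. The members, lists and motifs were chosen with earlier results of these data known. Text names 12 panel genes, the 6 called genes with the largest difference in each direction of a comparison, genes detected on 0 arrays, up to 4 called genes of the second list, and Myl10. Replicate numbers pair arrays by BeadChip, as the titles show; residuals of same-numbered arrays correlated across genes at −0.0478 to 0.367 on average. The number of arrays limits the precision, and what background and saturation do to dim and bright probes is given beside the values. Alternatives changed background, scaling, filter, probe, block, weights, threshold and arrays.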

Additional observations from a re-analysis of the deposited data

Results flagged for a closer look

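In 8 of 104 sets of 5 arrays (the 12 panel genes and the mean level of the muscle genes, in 8 groups each), 1 array stood far from the other 4, by a gap over 0.71 of the whole range; chance alone marks about 5% of such sets. Myl2 and Tnnt1, both slow-fibre forms, were high on the same array, trabecular AF-1-deleted with E2 on BeadChip 5. Myl2 was at 10.79 there and from 8.44 to 9.10 on the other 4, and Tnnt1 at 10.15 and from 8.85 to 9.03. On trabecular AF-1-deleted with vehicle, BeadChip 1, the calcium pump gene Atp2a1 was at 11.35, against 13.25 to 13.61 on the others. In trabecular wild type with vehicle, BeadChip 4 had Acta1 at 12.52 (13.18 to 13.38 on the others) and Trim63 at 6.21 (5.57 to 5.72), though Trim63 was not detected on any array of that group. In cortical AF-1-deleted with E2, Acta1 on BeadChip 5 was at 14.76, against 14.87 to 14.91, a small gap close to the top of the intensity scale. In cortical AF-1-deleted with vehicle, BeadChip 1 was low for Myh2, at 12.74 against 13.42 to 13.58, and for the mean level of the 42 genes, at 10.97 against 11.83 to 12.16. Without that array the mean difference between the bones in AF-1-deleted mice with vehicle was −3.02. For none of the 12 treatment, genotype and interaction comparisons did a muscle gene pass the test.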

How the results depend on the processing

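Counts of muscle genes passing the test stayed within 1.5 times the value reported under 545 of 551 alternatives over 17 comparisons, and mean differences moved by less than their spread over BeadChips under 512 of 517. The 24 single-gene results kept their direction and their side of the threshold under all 1163 alternatives run. With probes detected on every array of the fit 26 muscle genes were tested between the bones, and 26 passed over all groups, 26 in AF-1-deleted mice with E2, 26 with vehicle, 25 in wild type with E2 and 26 with vehicle; their mean difference over all groups was −2.37. Without background correction that mean was −2.05, and −2.05 with the authors' deposited values, and in AF-1-deleted mice with vehicle it was −2.26 with either. Leaving out arrays or a BeadChip gave 17 to 40 passing genes in wild type with E2, the 17 without BeadChip 3. With the replicate block, 42 genes passed over all groups, 41 in AF-1-deleted mice with E2, 42 with vehicle, 39 in wild type with E2 and 42 with vehicle. In each of the other 12 comparisons 0 passed, so the counts of muscle genes were the same as without the block. With BeadChip 1 also left out, 38 passed in wild type with E2 and 41 in AF-1-deleted mice with vehicle, and the other counts stayed the same. Of the 17 mean differences 6 changed sign when arrays were left out: E2 minus vehicle in cortical bone of AF-1-deleted mice (−0.31 to 0.36) and of wild type (−0.51 to 0.51), the E2 effect with the deletion minus that in wild type in trabecular (−0.44 to 0.19) and cortical bone (−0.36 to 0.70), the deletion minus wild type in E2-treated trabecular bone (−0.13 to 0.37), and the E2 effect in wild type, trabecular minus cortical (−0.04 to 1.14). Median residual SD over all 40 arrays was 0.661 to 0.893 over the alternatives, with 0.791 as reported. With quantile normalization within each bone, the mean difference between the bones was −2.66 and the median of all genes −0.07, against 0.07 as reported. Dim genes such as Myh7 are limited by signal over background.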
